A study of Homo sapiens
Mus musculus with 16 samples.

Results

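This comparison set all 8 tumours of mice given phenelzine against all 8 tumours of mice that were not, out of 16 tumours in the study. Members were chosen by treatment label alone. The tumours grew from MDA-MB-231 cells, an established human triple-negative breast cancer line, placed in the mammary fat pad of Balb/c nude mice, a strain without a thymus. Each mouse received 2000000 MDA-MB-231 cells in 50 µl of an equal mix of PBS and Matrigel, and tumours were taken on day 50 for paired-end mRNA sequencing, with 4 libraries in each group. The 8 tumours with phenelzine comprised 4 given phenelzine alone (40 mg/kg daily from day 15) and 4 given the same phenelzine course plus nab-paclitaxel (30 mg/kg on days 15, 22 and 29), called the combination. The 8 without it comprised 4 given vehicle and 4 given nab-paclitaxel alone on the same days. All injections were intraperitoneal, and every tumour came from the same line. Each library is called a tumour here, although the labels do not state that each came from its own mouse. Whether nab-paclitaxel had been given is called the nab-paclitaxel state, and it was held as a covariate, so the values below are phenelzine effects over both states.

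Phenelzine is a hydrazine drug that irreversibly blocks the monoamine oxidases, flavin enzymes that break down serotonin, noradrenaline and dopamine. It also inhibits LSD1, a related flavin enzyme that removes methyl groups from histone H3 and acts with the CoREST repressor complex, which is why the drug has been studied in breast cancer cells. Nab-paclitaxel is paclitaxel bound to albumin; paclitaxel stabilises microtubules and arrests dividing cells. In a xenograft the tumour cells are human and the blood vessels, fibroblasts and immune cells are mouse, so human counts are read here as tumour cells and mouse counts as the host tissue around them. How cleanly the reads were split by species was not tested.

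Libraries 1 and 4 of nab-paclitaxel alone and 1 and 3 of the combination stood apart from the rest on the first principal component of the human genes, with scores of 72.7 to 125 against -56.6 to 5.37 in the other 12. Phenelzine accounted for 0.0446% of the variance of that component between libraries and for 0.0392% of the first mouse component. Totals per library ran from 11065140 to 34537399 human counts and from 3457146 to 27389920 mouse counts, with 33636445 to 42647014 for both. The files give Ensembl gene IDs without gene names, and 0 human and 0 mouse IDs were matched to a name in the reference table at hand. The amine oxidases, LSD1 and the 51 gene lists written for this comparison could therefore not be looked up, nor could the tissue and cell line labels be checked against marker genes. A gene is said to rise or fall where its p from the edgeR quasi-likelihood test, adjusted over all genes of its species, was under 0.05. The 3 genes past this threshold are given by ID. The others are called by compartment, direction and order of p: host high 3 is the mouse gene with the third lowest p among those higher with phenelzine. The first 5 in each direction and compartment were taken, among genes with a mean of at least 5 CPM (library-scaled counts-per-million) in the arm where they were higher and with the same direction in both nab-paclitaxel states. CPM values are scaled by TMM within each species, so a host value is relative to mouse counts only. In whole-tumour RNA, fewer cells of a type and less RNA per cell cannot be told apart.

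The amount of host RNA overlapped between the arms. The mouse share of all counts averaged 30.5% ± 24.0 (SD, n = 8) with phenelzine, from 9.25% to 71.2%, and 28.8% ± 16.3 (SD, n = 8) without, from 13.6% to 59.7%. The mean of the differences within the states was 1.68 points (exact permutation test of 4900 regroupings within states, two-sided, p = 0.844). It was made up of -8.40 points without nab-paclitaxel and 11.8 points with it, and its sign turned without nab-paclitaxel 2 (-0.508), nab-paclitaxel 3 (-0.898) or combination 1 (-2.14).

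In the host tissue, 2 genes rose with phenelzine and 1 fell, of 15074 tested. These were ENSMUSG00000059824, which rose 4.78-fold, ENSMUSG00000028957, which rose 2.85-fold, and ENSMUSG00000055116, which fell by 1.31 on the log2 scale. All 3 moved in the same direction in each nab-paclitaxel state, and in each state the 4 libraries with phenelzine did not overlap the 4 without. Tested within 1 state, each had an edgeR adjusted p of 0.674 without nab-paclitaxel. With nab-paclitaxel the edgeR adjusted p was 0.0841 for ENSMUSG00000059824, 0.0641 for ENSMUSG00000028957 and 0.0285 for ENSMUSG00000055116, so only the last passed. The 3 genes made up 0.0199% of the mouse genes tested (0.0133% higher and 0.00663% lower), against 1.09% called for nab-paclitaxel in the same model (0.491% higher and 0.604% lower). In the tumour cells, 0 of 18131 human genes passed (0%), against 18.1% for nab-paclitaxel (11.7% higher and 6.39% lower). There 359 human genes had an unadjusted p under 0.05, and DESeq2 called 2 and voom 0.

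ENSMUSG00000059824 stood at 17.96, 15.6, 9.34 and 12.8 CPM in vehicle tumours 1 to 4 and at 72.2, 54.9, 38.3 and 57.2 CPM with phenelzine alone. With nab-paclitaxel alone it stood at 23.8, 8.81, 12.9 and 35.1 CPM, and with the combination at 117 (tumour 1), 71.8, 197.5 and 70.9 CPM. Every tumour with phenelzine lay above every tumour without it: the lowest with the drug, phenelzine 3, was above the highest without, nab-paclitaxel 4. The log2 fold change was 2.26 (SE 0.301), at an edgeR adjusted p of 0.00732, with a 95% interval of 1.62 to 2.89. It was 2.00 (SE 0.427) without nab-paclitaxel and 2.50 (SE 0.425) with it. Set against the mean of the tumours without phenelzine in the same state, the 8 tumours with phenelzine ranged from 2.75 times in phenelzine 3 to 9.80 times in combination 3.

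ENSMUSG00000028957 stood at 12.3, 15.95, 11.3 and 12.4 CPM with vehicle and at 46.8, 33.3, 16.9 and 32.2 CPM with phenelzine alone. With nab-paclitaxel alone the values were 17.6, 11.4, 13.8 and 19.97 CPM, and with the combination 53.7, 60.6, 56.5 and 34.3 CPM. Here 7 of the 8 tumours with phenelzine lay above all 8 without. The exception was phenelzine 3, which was above the vehicle tumours but below nab-paclitaxel 1 and 4. The log2 fold change was 1.51 (SE 0.196), at an edgeR adjusted p of 0.00732, with a 95% interval of 1.097 to 1.93. It was 1.31 (SE 0.276) without nab-paclitaxel and 1.71 (SE 0.273) with it.

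ENSMUSG00000055116 moved the other way. It stood at 34.2, 36.7, 36.3 and 56.3 CPM with vehicle and at 53.7, 55.8, 43.6 and 52.9 CPM with nab-paclitaxel alone. With phenelzine alone the values were 11.9, 18.6, 24.3 and 22.5 CPM, and with the combination 18.5, 19.9, 12.9 and 19.9 CPM. All 8 tumours with phenelzine were below all 8 without. The log2 fold change was -1.31 (SE 0.164), at an edgeR adjusted p of 0.00732, with a 95% interval of -1.66 to -0.96. It was -1.08 (SE 0.224) without nab-paclitaxel and -1.53 (SE 0.222) with it. Among the 8 tumours with phenelzine, phenelzine 3 had the highest level of this gene and the lowest level of both genes that rose.

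**Figure D1:**
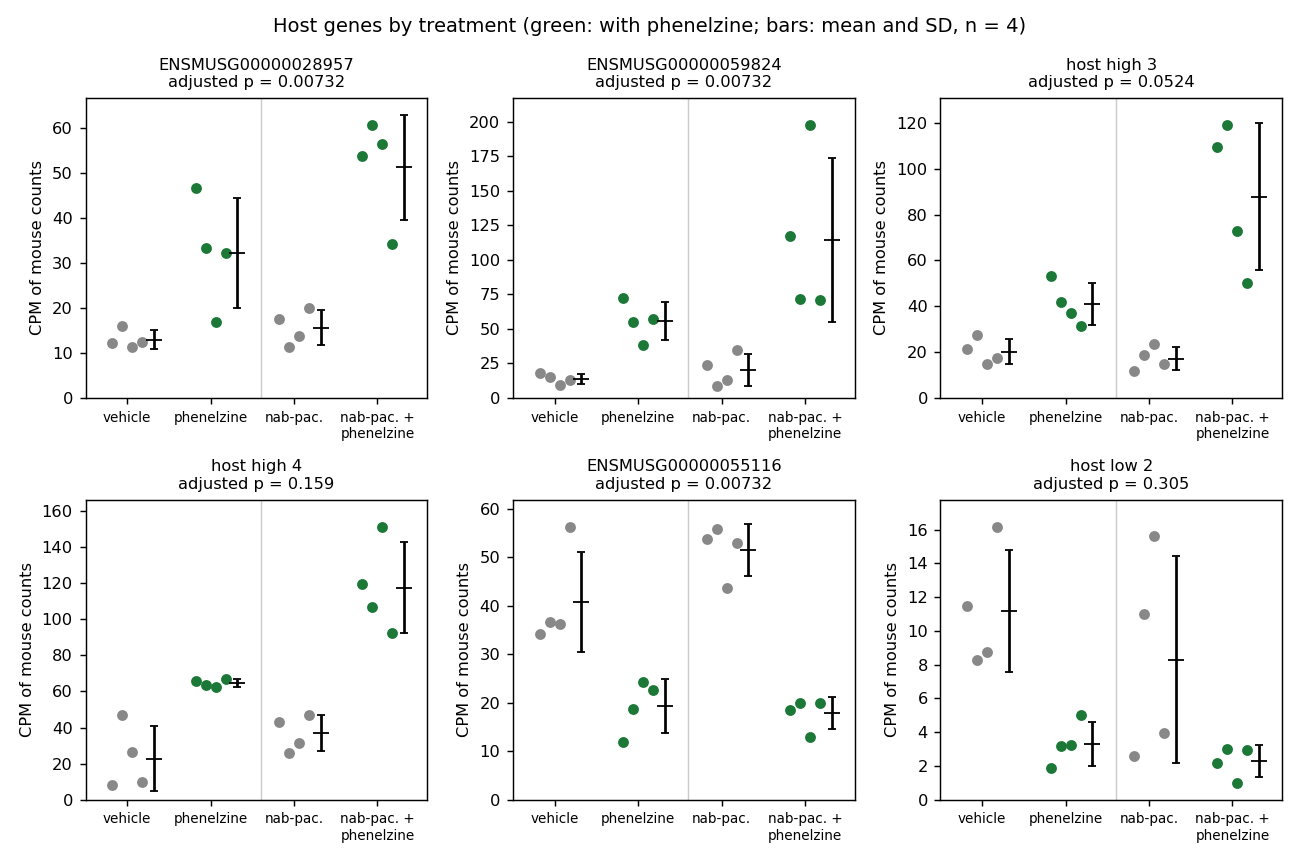
TMM-scaled CPM of mouse counts (vertical axes, from 0) for 6 host genes in the 4 treatment groups, 1 point per tumour, with mean and SD (n = 4) as black bars and tumours with phenelzine in green. ENSMUSG00000059824, host high 3, host high 4 and ENSMUSG00000055116 show no overlap between the 8 green and 8 grey points, while ENSMUSG00000028957 overlaps by 1 tumour and host low 2 by more.

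These 3 calls held with each of the 16 libraries left out in turn, with an edgeR adjusted p of at most 0.0289. In the 12 libraries that remain without nab-paclitaxel 1 and 4 and combination 1 and 3, ENSMUSG00000059824 was still called (2.24 on the log2 scale, edgeR adjusted p = 0.00587). The calls of ENSMUSG00000028957 and ENSMUSG00000055116 were lost there, at log2 fold changes of 1.51 and -1.16 (edgeR adjusted p = 0.178 for both). With the mouse share as a further covariate all 3 were called, with log2 fold changes of 1.49 for ENSMUSG00000028957, 2.23 for ENSMUSG00000059824 and -1.30 for ENSMUSG00000055116. Cage, order of dissection and time of day of excision are not given in the labels. If any of these differed between the groups, its part in the 3 calls and in the genes named after them cannot be told apart from phenelzine.

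**Figure D2:**
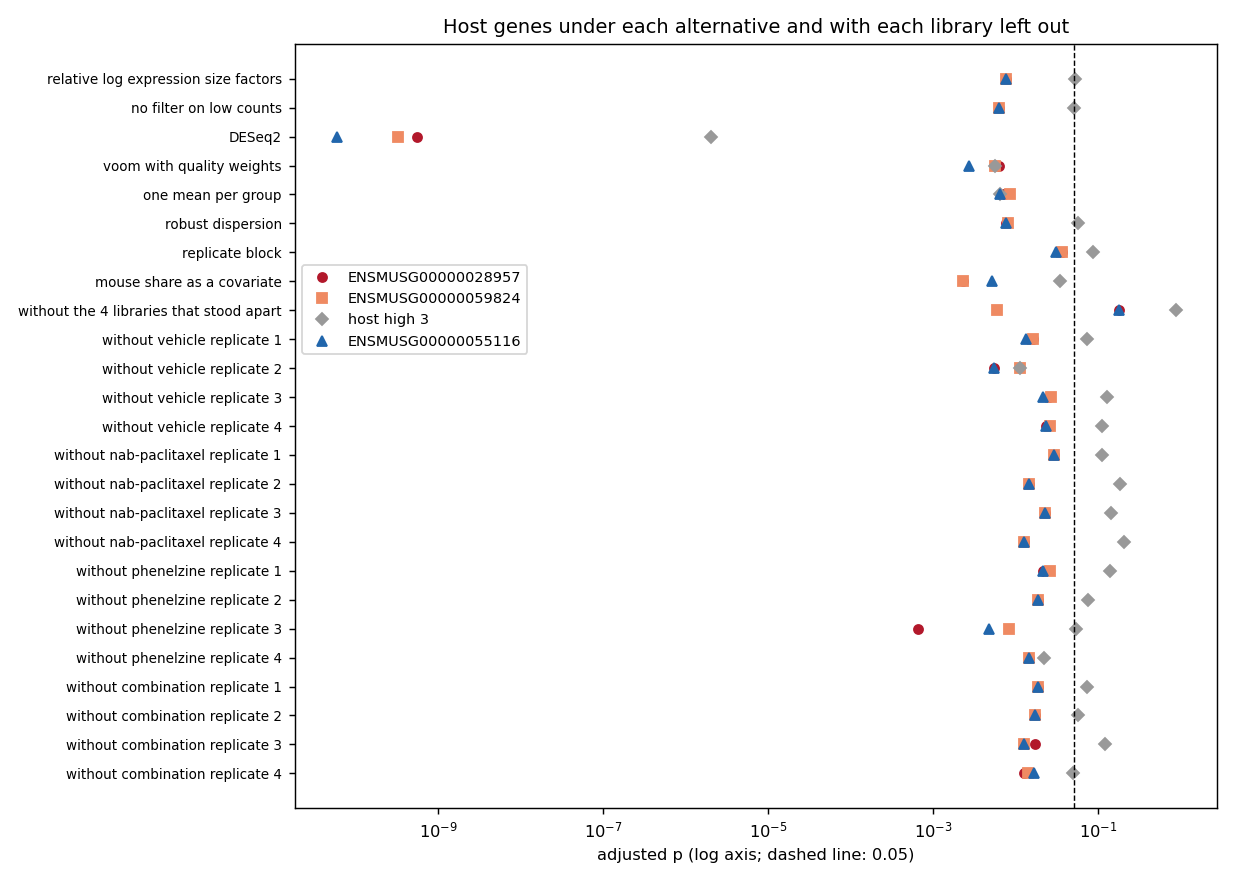
Adjusted p (horizontal log axis, dashed line at 0.05) of the 3 called host genes and host high 3 under 9 alternative settings and with each of 16 libraries left out. The called genes lie left of the line in every row but the one without the 4 libraries that stood apart, where ENSMUSG00000028957 and ENSMUSG00000055116 lie at 0.178; host high 3 lies on both sides of it.

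Behind the called genes came host genes with effects of like size that did not pass over both states. Host high 3 was at 21.3, 27.5, 14.9 and 17.4 CPM with vehicle and at 53.1, 41.8, 37.1 and 31.5 CPM with phenelzine alone. It was at 11.96, 18.7, 23.4 and 14.7 CPM with nab-paclitaxel alone and at 109 (tumour 1), 119 (tumour 2), 72.9 and 50.0 CPM with the combination. All 8 tumours with phenelzine lay above all 8 without, and combination 1 and 2 were the highest. Its log2 fold change was 1.69 (SE 0.273), at an edgeR adjusted p of 0.0524. The effect was 1.01 (SE 0.292) without nab-paclitaxel and 2.36 (SE 0.298) with it. That difference of 1.35 (SE 0.408) had an unadjusted p of 0.00479 and did not pass adjustment (edgeR adjusted p = 0.597). Tested within 1 state, host high 3 passed with nab-paclitaxel (edgeR adjusted p = 0.00857) and not without it (0.773). With 1 mean per group in place of the additive model the gene was called (edgeR adjusted p = 0.00648), as it was without vehicle 2, phenelzine 4 or combination 4 (0.0111, 0.0219 and 0.0495). It was not called in the other 13 leave-one-out fits (adjusted p up to 0.204, without nab-paclitaxel 4), with the replicate block (0.0863) or without the 4 libraries that stood apart (1.34 on the log2 scale, 0.857).

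Host high 4 was at 8.14, 46.8, 26.2 and 9.58 CPM with vehicle and at 42.9, 25.8, 31.3 and 47.1 CPM with nab-paclitaxel alone. With phenelzine alone it was at 65.8, 63.6, 62.2 and 66.9 CPM, and with the combination at 119 (tumour 1), 107 (tumour 2), 151 (tumour 3) and 92.2 CPM. The arms did not overlap. The tumours with phenelzine alone lay close together while the vehicle tumours ran over a wide range. The log2 fold change was 1.58 (SE 0.288), at an edgeR adjusted p of 0.159, and without vehicle 2, the highest vehicle tumour, it was 1.88 (adjusted p = 0.00538). That was 1 of 16 leave-one-out fits to call host high 4, the others reaching 0.441 (without nab-paclitaxel 3), and it was not called without the 4 libraries that stood apart (adjusted p = 1) or with the replicate block (0.382). With the mouse share as a covariate both host high 3 and host high 4 were called (edgeR adjusted p = 0.0342 for each). DESeq2 and voom also called both. The adjusted p was 2.03e-06 in DESeq2 and 0.00552 in voom for host high 3, and 0.00018 and 0.00279 for host high 4.

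Host high 5, at 3.23 ± 0.808 CPM without phenelzine and 11.8 ± 8.21 CPM with it (SD, n = 8 each), differed by 1.74 on the log2 scale (SE 0.347), with adjusted p = 0.305 in edgeR. The highest values lay in the combination, at 16.7, 19.7, 26.1 and 6.48 CPM, while phenelzine alone gave 6.87, 10.3, 3.21 and 4.65 CPM. Phenelzine 3 and 4 lay among the tumours without the drug, the highest of which was vehicle 1 at 4.80 CPM. Host high 5 was called in 2 of 9 alternative settings, by DESeq2 (adjusted p = 0.000828) and by voom (adjusted p = 0.0461). Its log2 fold change over the 9 settings ran from 1.30 to 2.15. With each library left out it was called in 0 of 16 fits (edgeR adjusted p up to 0.813, without nab-paclitaxel 3).

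Of the genes lower in the host, host low 2 was at 9.73 ± 4.91 CPM without phenelzine and 2.80 ± 1.19 CPM with it (SD, n = 8 each), or -1.80 on the log2 scale (SE 0.369), with adjusted p = 0.305 in edgeR. Nab-paclitaxel 1 and 4, at 2.57 and 3.97 CPM, lay among the tumours with phenelzine. DESeq2 called host low 2 (adjusted p = 0.00314) and voom did not (adjusted p = 0.779). Host low 3 was at 19.6, 10.9, 12.9 and 28.9 CPM with vehicle and 26.3, 28.3, 33.0 and 32.5 CPM with nab-paclitaxel alone. It was at 8.72, 1.75, 5.26 and 17.9 CPM with phenelzine alone and 2.88, 4.99, 4.50 and 4.17 CPM with the combination. In 7 of 8 tumours with phenelzine it lay below every tumour without it, phenelzine 4 being the exception. Its log2 fold change was -1.99 (SE 0.423), at an edgeR adjusted p of 0.376, and without phenelzine 4 it was -2.40 (adjusted p = 0.0144). That was 1 of 16 leave-one-out fits to call host low 3. It was -1.83 without combination 1 (adjusted p = 0.977) and -1.64 without the 4 libraries that stood apart (adjusted p = 1). With all 16 libraries host low 3 was called by DESeq2 (adjusted p = 0.00165) and by voom (adjusted p = 0.00552).

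Host low 4 and host low 5 differed less. Host low 4 was at 139 ± 29.3 CPM without phenelzine and 92.7 ± 17.97 CPM with it (SD, n = 8 each), or -0.59 on the log2 scale (SE 0.140), with adjusted p = 0.727 in edgeR. Host low 5 was at 34.4 ± 8.26 and 23.9 ± 3.46 CPM, or -0.52 on the log2 scale (SE 0.145), with adjusted p = 0.999 in edgeR. Over all 16 tumours the arms overlapped in both. Host low 4 did not overlap between phenelzine alone and vehicle, and host low 5 did not between the combination and nab-paclitaxel alone. The effect on host low 4 was -0.87 (SE 0.177) without nab-paclitaxel and -0.32 (SE 0.175) with it. That difference had an unadjusted edgeR p of 0.0433 and did not pass adjustment (0.603). For host low 5 the effects were -0.53 and -0.52.

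In the tumour cells, the lowest p belonged to a gene that was higher with phenelzine, tumour high 1. It stood at 14.5, 10.6, 13.7 and 13.9 CPM with vehicle and at 20.5, 19.9, 17.3 and 17.8 CPM with phenelzine alone. With nab-paclitaxel alone it stood at 13.7, 12.0, 16.4 and 12.2 CPM, and with the combination at 29.1, 19.2, 33.3 and 25.0 CPM. The arms did not overlap, though phenelzine 3 and nab-paclitaxel 3 lay within 1 CPM. The log2 fold change was 0.74 (SE 0.129), with an edgeR adjusted p of 0.542. Leaving out each library gave adjusted p of 0.3 to 1, and DESeq2 called the gene (adjusted p = 0.00119). Without the 4 libraries that stood apart the log2 fold change was 0.55 (edgeR adjusted p = 0.999).

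Tumour high 2 was at 14.0 ± 1.53 CPM without phenelzine and 23.0 ± 8.96 CPM with it (SD, n = 8 each), or 0.68 on the log2 scale (SE 0.170), with adjusted p = 1 in edgeR. Combination 1 and 3, at 41.1 and 31.6 CPM, were its highest tumours, and phenelzine 4 and combination 2, at 15.0 and 16.5 CPM, lay among those without the drug. Tumour high 5 had the same 2 tumours on top, at 39.8 and 39.5 CPM. Its log2 fold change was 0.73 (SE 0.193), at an edgeR adjusted p of 1, and it was also higher with nab-paclitaxel in the same model (log2 fold change 0.62, adjusted p = 0.0362).

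Tumour high 4 was the other of these genes whose arms did not overlap. It was at 19.0 ± 2.63 CPM without phenelzine and 25.6 ± 3.84 CPM with it (SD, n = 8 each), or 0.43 on the log2 scale (SE 0.110), with adjusted p = 1 in edgeR. Its highest tumour without the drug was nab-paclitaxel 3, at 21.88 CPM, and its lowest with the drug was combination 2, at 21.90 CPM, so the gap was small. Tumour high 3 had a log2 fold change of 0.43 (SE 0.109) as well, made up of 0.62 without nab-paclitaxel and 0.24 with it.

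Of the tumour genes lower with phenelzine, tumour low 1 went from 14.1 ± 2.65 to 10.2 ± 2.40 CPM (SD, n = 8 each), or -0.47 on the log2 scale (SE 0.117), with adjusted p = 1 in edgeR. It was lower by a like amount in both states (-0.51 and -0.44) and higher with nab-paclitaxel (log2 fold change 0.42, adjusted p = 0.0223). Tumour low 3, the most abundant of the 10 tumour genes, was at 93.6 to 149 CPM without phenelzine and at 78.6 to 112 CPM with it, log2 fold change -0.34 (SE 0.0953). Tumour low 2 and tumour low 5 had log2 fold changes of -0.48 and -0.30. Tumour low 4 had the largest, -1.31 (SE 0.410), with vehicle 2 at 17.4 CPM, nab-paclitaxel 1 at 10.3 CPM and vehicle 3 at 8.51 CPM as its highest tumours and vehicle 1 and 4 within the range of the tumours with phenelzine. The arms overlapped in all 5.

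**Figure D3:**
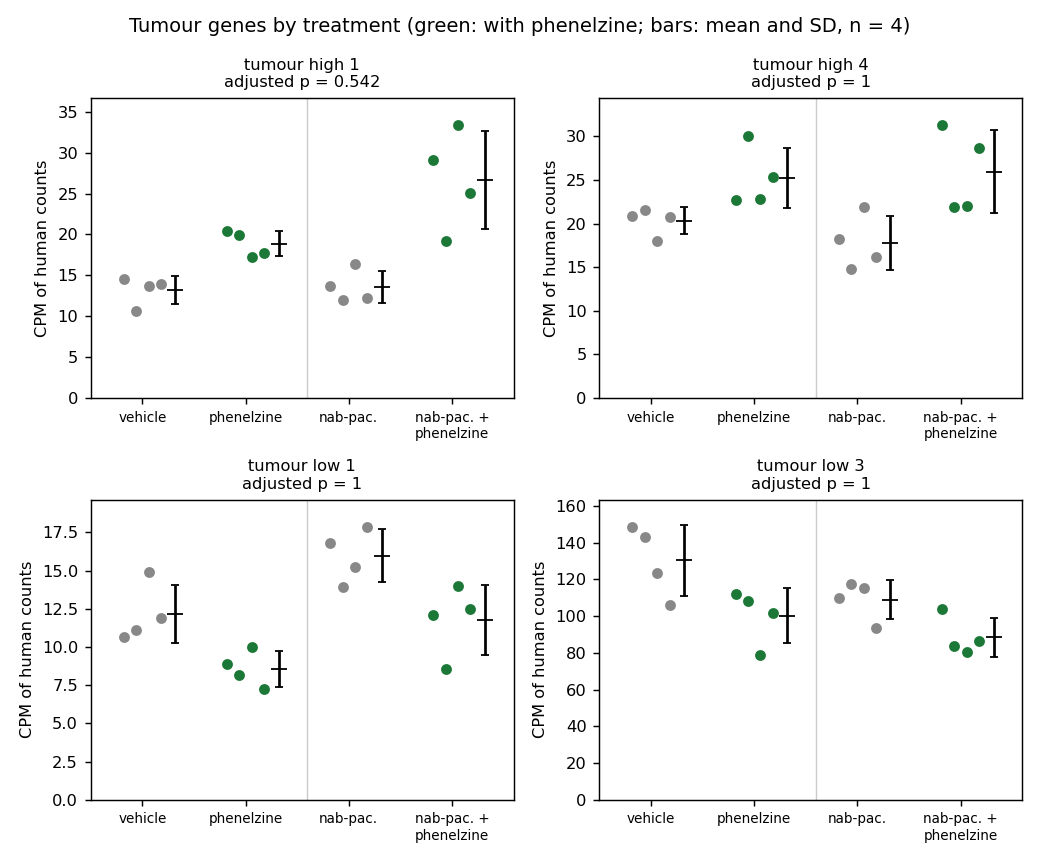
TMM-scaled CPM of human counts (vertical axes, from 0) for 4 tumour genes in the 4 treatment groups, 1 point per tumour, with mean and SD (n = 4) as black bars and tumours with phenelzine in green. The green points of tumour high 1 and tumour high 4 lie above all grey points, by a small margin, and those of tumour low 1 and tumour low 3 overlap the grey ones; none of the 4 passed the threshold.

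Absolute log2 fold changes were 0.30 to 1.31 in the 10 tumour genes and 0.52 to 2.26 in the 10 host genes. The compartments were not compared by a test, since their genes are counted in separate matrices. In 9 of the 10 tumour genes, and in all 10 host genes, which were picked by p, each of the 8 tumours with phenelzine lay on the same side of the mean without the drug in its own state. The exception was tumour high 5 in combination 2, at 0.895 of the nab-paclitaxel mean.

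**Figure D4:**
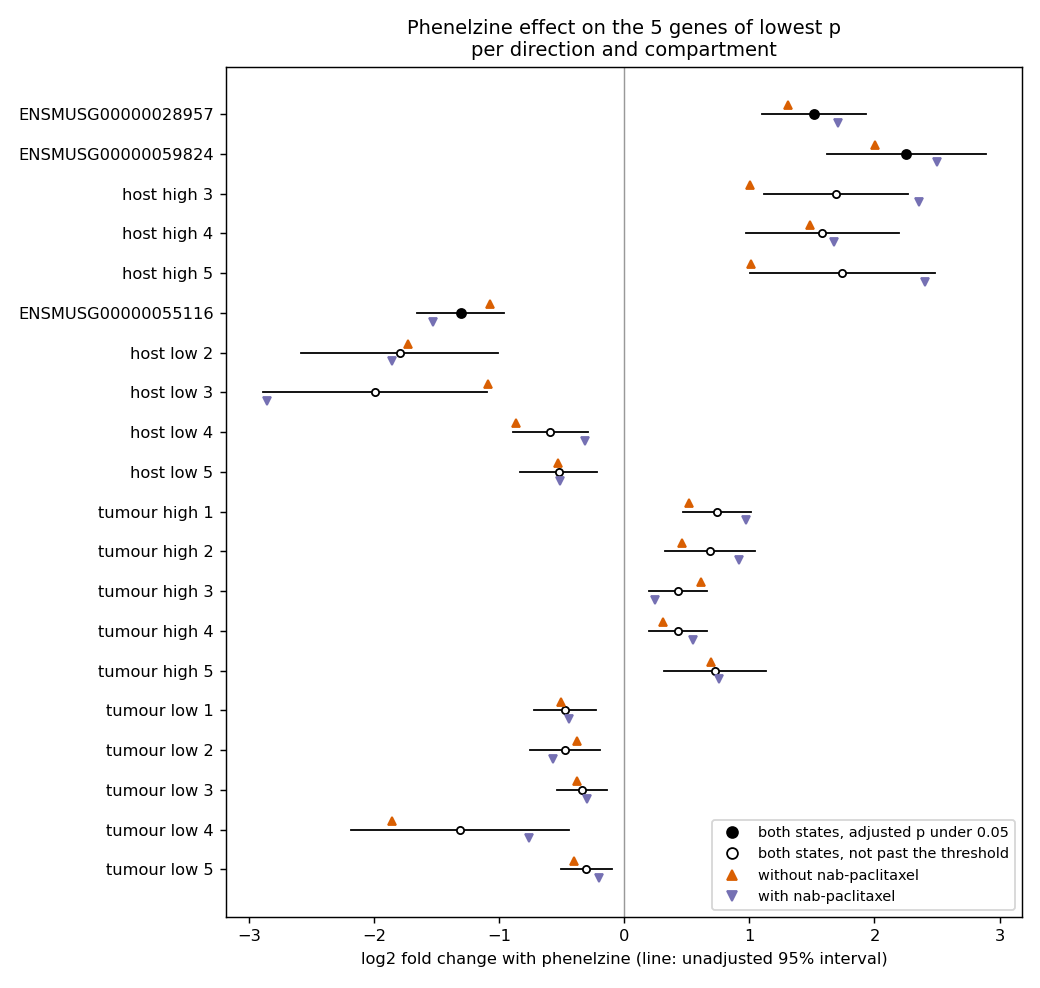
Log2 fold change with phenelzine (horizontal axis) of the 5 genes with the lowest p in each direction and compartment, with unadjusted 95% intervals; filled circles mark adjusted p under 0.05, and triangles the effect without (up) and with nab-paclitaxel (down). Host effects reach 2.26 and -1.99, tumour effects 0.74 and -1.31. Members were picked by p, so that the intervals miss 0 is no finding.

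Over all genes, phenelzine differences over both states were small and centred on 0. The median log2 fold change was 0.0017 over human and -0.02 over mouse genes. The median absolute value was 0.10 and 0.13, against 0.27 and 0.21 for nab-paclitaxel. Among genes of at least 5 CPM it was 0.07 for human and 0.11 for mouse genes, against 0.21 and 0.19 for nab-paclitaxel. Within a state it was larger for phenelzine, at 0.10 and 0.18 without nab-paclitaxel and 0.12 and 0.17 with it. The values within a state rest on 8 libraries and the others on 16. At an unadjusted p under 0.05 stood 359 human genes (1.98%; 1.01% higher and 0.971% lower) and 497 mouse genes (3.3%; 1.65% higher and 1.65% lower). The phenelzine term held 3.48% of the sum of squares of log2 CPM in the human and 4.72% in the mouse genes, and the nab-paclitaxel term 28.6% and 18.3%. Each term is 1 of 15 degrees of freedom between the 16 libraries.

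Among 11697 human genes of at least 5 CPM, the unadjusted 95% interval of the phenelzine effect lay inside a 2-fold change in either direction in 94.0% and inside a 1.5-fold change in 79.2%. Among 12297 such mouse genes the shares were 84.5% and 60.8%. The median half-width of the interval was 0.28 on the log2 scale for human and 0.36 for mouse genes. It was 0.92 for human genes under 1 CPM and 0.91 for mouse genes of 1 to 5 CPM.

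Among genes of at least 5 CPM, 11 tumour genes were higher and 16 lower by 2-fold or more with phenelzine. Their highest values were spread over libraries, with at most 4 of the 11 in combination 1 and 5 of the 16 in nab-paclitaxel 3. In the host 92 were higher and 105 lower, and of the 105 lower, 76 (72.4%) had their highest value in vehicle 2, the vehicle tumour with the largest mouse share (37.8%). Of the 92 higher, 45 (48.9%) had their highest value in combination 2 and 15 in combination 1, whose mouse shares were 47.4% and 71.2%. The part of the mouse share in these counts was not tested. Of the called genes, ENSMUSG00000028957 was also highest in combination 2, ENSMUSG00000059824 in combination 3 and ENSMUSG00000055116 in vehicle 4.

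The states were compared through libraries that they do not share: phenelzine against vehicle uses 8 tumours and the combination against nab-paclitaxel the other 8. Of the host genes, 161 were higher in all 4 tumours with phenelzine than in all 4 without in the first comparison (1.07% of those tested), and 333 in the second (2.21%). These lists had 7 genes in common (0.0464% of those tested), which are 4.35% of the first and 2.1% of the second. Lower in all 4 were 0.955% and 1.67% of the host genes, with 3 genes in common (0.0199%), which are 2.08% and 1.2% of those lists. Another 9 host genes (0.0597%) did not overlap in either state but in opposite directions. For the tumour genes, 250 (1.38%) and 126 (0.695%) were higher with 3 in common (0.0165%, or 1.2% and 2.38% of the lists), 274 (1.51%) and 153 (0.844%) were lower with 1 in common (0.00552%, or 0.365% and 0.654%), and 4 went in opposite directions (0.0221%). The 10 host genes in common held the 3 called genes, host high 3 and host high 4. Those genes were picked by low p in the same libraries, so their place here is no separate support. Over all 8 against 8, 3 host genes were higher (0.0199%) and 1 lower (0.00663%) without overlap, and 3 tumour genes were higher (0.0165%) and 0 lower (0%). Some genes separate in this way by chance, and the share to expect was not worked out, so these counts are a description.

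Across genes of at least 5 CPM the effects in the 2 states did not run together. Pearson's r was -0.26 (Spearman -0.24) over the host genes and -0.08 (Spearman -0.15) over the tumour genes, as a description, since genes of 1 library share its depth and composition and are not replicates. From group means of log2 CPM, r in the host was -0.23, and between -0.33 (without vehicle 4) and -0.10 (without phenelzine 4) with 1 library left out. In the tumour it was -0.13, and between -0.19 (without vehicle 4) and -0.06 (without vehicle 2). Of the 921 host genes with an unadjusted p under 0.05 for phenelzine against vehicle, 34.1% had the same sign on top of nab-paclitaxel, against 42.0% of all host genes. In the tumour these were 42.3% of 426 genes and 46.1% of all. The test of whether the effect differed between the states called 0 human genes (0%), with 544 at an unadjusted p under 0.05 (3%), and 0 mouse genes (0%), with 1228 (8.15%, edgeR). DESeq2 called 11 and 17.

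**Figure D5:**
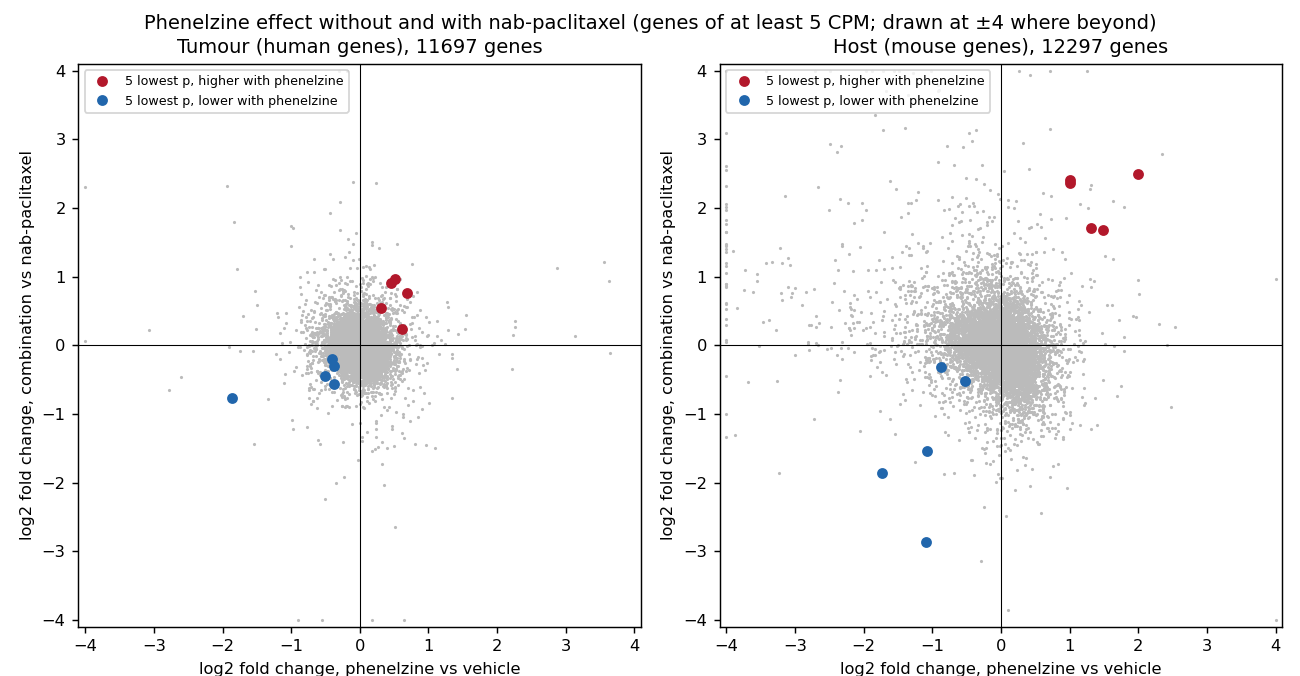
Log2 fold change for phenelzine against vehicle (horizontal axis) and for the combination against nab-paclitaxel (vertical axis), 1 grey point per gene of at least 5 CPM, for 11697 human and 12297 mouse genes; red and blue points are the 5 genes of lowest p in each direction. The cloud has no upward slope (r -0.08 and -0.26), and the host genes in red and blue lie outside its centre; the rule chose them for the same sign in both states.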

How the data were processed

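The values are whole-number counts per Ensembl gene, deposited by the authors as 1 human and 1 mouse matrix of the same 16 libraries. The submitters' processing notes list HISAT2 2.04, StringTie, Trimmomatic 0.36, edgeR, Picard, hg38 and mm10 without saying what each was for. The division of reads by species, the annotation and the strand setting are not given in these sources. In every library fewer genes have a count of 1 than of 2, so low values may not be tallies of single fragments.

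The 2 matrices were fitted separately (edgeR 4.0.16, R 4.3.3) after the default low-count filter (minimum count of 10) and TMM scaling, by quasi-likelihood F tests of an additive model of nab-paclitaxel and phenelzine with 13 residual degrees of freedom. Adjusted p-values are Benjamini-Hochberg over all genes tested, with a threshold of 0.05. Standard errors are the log2 fold change over the square root of F. Effects within a state and their difference came from a model with 1 mean per group. Alternatives used DESeq2 1.42.0 and limma 3.58.1 (voom). The scripts were tested on simulated data. The labels number 4 libraries a group without stating that each came from its own mouse, so p-values measure the spread between these libraries. No library repeated another of its group (chi-square per degree of freedom at least 13.1). The comparison, the gene lists and the rule for named genes were chosen with earlier results of these data known. The rule also asked for a symbol and for list members, which could not be applied.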

Additional observations from a re-analysis of the deposited data

Results flagged for a closer look

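Of 84 sets of 4 tumours scanned (20 genes and the mouse share in 4 groups), 2 held a tumour far from the others, with a gap over 0.829 of the range; chance flags about 1 in 20 sets. ENSMUSG00000055116 stood at 56.3 CPM in vehicle 4, with the other vehicle tumours at 34.2 to 36.7 CPM (gap 0.889 of the range). Its call held without vehicle 4, at a log2 fold change of -1.24 (edgeR adjusted p = 0.0231). Tumour high 2 stood at 11.3 CPM in vehicle 2, below the other vehicle tumours at 14.1 to 14.5 CPM (gap 0.867 of the range).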

How the results depend on the processing

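The count of 3 host calls was 3 with relative log expression size factors, with no filter on low counts, with robust dispersion and with the replicate block, and 4 with 1 mean per group. It was 17 with DESeq2 (13 higher, 4 lower), 7 with voom, 5 when the mouse share was a covariate and 1 without the 4 libraries that stood apart. Leaving out each library gave 3 to 5 calls, 3 in 13 of 16 fits and always including these 3 genes; it was 5 without vehicle 2 or phenelzine 4 and 4 without combination 4. The human count was 0 in every setting but DESeq2, which called 2, and 0 in all 16 leave-one-out fits. Tested within 1 state, edgeR called 0 human and 0 host genes for phenelzine against vehicle. For the combination against nab-paclitaxel it called 1 human and 3 host genes, with ENSMUSG00000055116 and host high 3 among the host genes. The count for the difference between states was 11 human and 17 mouse genes with DESeq2 and 4 human genes without the 4 libraries that stood apart, and leaving out a library gave 0 to 1 human (1 without nab-paclitaxel 4) and 0 to 4 mouse genes (4 without phenelzine 2, 1 without phenelzine 3 or combination 4). The causes were not tested, apart from fewer libraries where some were left out. No named gene changed direction in any setting. The difference in mouse share ran from -2.14 to 6.62 points with 1 library left out, against 1.68.

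Replicate numbers are shared across groups, but 3 of 8 human and 5 of 8 mouse pairs of same-numbered libraries had deviations correlated over 0.1 (range -0.43 to 0.57 and -0.11 to 0.31). In the mouse genes these included all 4 pairs of vehicle with phenelzine (0.11 to 0.27) and 1 of 4 of nab-paclitaxel with the combination. Since not every pair passed, the numbers were not taken as pairs. With the replicate block 3 host genes (all 3 of those called, edgeR adjusted p = 0.0308 to 0.036) and 0 human genes passed, 0 of either for the difference between states, and the mouse share differed by 1.68 points (exact sign-flip test, p = 0.797).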

Other observations

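DESeq2 called 17 host genes and voom 7, all 7 among the 17, and all 17 had the same direction in both nab-paclitaxel states. The 13 higher with phenelzine ran from a log2 fold change of 0.37 to 2.26 in edgeR. Of these 17 genes, 8 are described above. Among the other 9, 1 stood at 65.5 CPM without phenelzine and 121.7 CPM with it, or 0.89 on the log2 scale (SE 0.181), with adjusted p = 0.305 in edgeR and 0.00526 in DESeq2, with effects of 0.86 and 0.92 in the 2 states and no overlap within either. Another went from 54.1 to 83.1 CPM, or 0.63 on the log2 scale (SE 0.128), with adjusted p = 0.305 in edgeR and 0.00422 in DESeq2. One more, at 3.28 and 11.1 CPM, differed by 1.86 on the log2 scale (SE 0.414), with adjusted p = 0.532 in edgeR and 0.00526 in DESeq2. These genes were chosen after their values were seen.

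The second human gene that DESeq2 called stood at 0.418 to 0.968 CPM in the 8 tumours without phenelzine and at 0.961 to 1.74 CPM in the 8 with it, or 1.14 on the log2 scale (SE 0.219), with adjusted p = 0.794 in edgeR and 0.0267 in DESeq2. It lay under the level asked of named genes.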
